A study of Homo sapiens with 9 samples.

Results

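The 10 genes described here encode proteins that hold epithelial cells together: the cadherins *CDH1* and *CDH16*, the adhesion molecule *EPCAM*, the claudins *CLDN1*, *CLDN2*, *CLDN4*, *CLDN7* and *CLDN10*, occludin (*OCLN*) and the scaffold protein ZO-1 (*TJP1*). They were chosen by name, as the rows whose NCBI gene identifiers belong to these symbols, and all 10 were found among the 28395 genes of the count table. The table holds RNA sequencing of 9 libraries, 3 for each of 3 human kidney cell lines that were kept in Plasmax, a culture medium modelled on the nutrients of human plasma, with no treatment. HK2 is a line of normal proximal tubule, 786-O is a line from a primary clear cell renal cell carcinoma (ccRCC), and 786-M1A is a metastatic derivative of 786-O recovered from lung metastases that grew after its cells were injected in vivo. Each stage is therefore represented by a single line, and the replicates are, by the study's methods, dishes of that line, so that the p-values below measure the spread between dishes and not between tumors.

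Epithelial cells are joined near their apical side by tight junctions and, below them, by adherens junctions. In an adherens junction, cadherins of neighbouring cells bind each other and are tied to actin through catenins. In a tight junction, strands of claudins, with occludin among them, close the space between cells and decide which ions and how much water pass, and ZO proteins anchor these strands. The proximal tubule is a leaky epithelium known for CLDN2, a pore for cations and water, and for CDH16 and CDH6, while E-cadherin (CDH1) is more typical of the distal nephron. EpCAM is an epithelial surface protein that binds CLDN7 and CLDN1.

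Between 30212291 and 45362428 reads were counted on genes in each library. Values are normalized counts (CPM: reads of a gene relative to the library total, scaled by the TMM factors of edgeR), and a single edgeR quasi-likelihood fit of all 9 libraries gave the 3 comparisons between lines. The 12695 genes that averaged 50 counts or more were tested, with Benjamini-Hochberg adjustment over all of them, and a gene was called at an adjusted p under 0.05. As a floor, 3 counts over the 3 libraries of a line were used, which is 0.0241 to 0.0267 CPM and covers counting error only. The smallest p of an exact permutation test (two-sided) of 3 libraries against 3 is 0.1. The libraries of a line correlated at 0.997 to 0.998 across genes, and libraries of different lines at 0.968 at most. All 4 genes of the kidney lineage, among them *PAX8* and *PAX2*, had a mean of at least 50 counts in each line. Of 10 proximal tubule markers, in contrast, only 2 reached that mean in any line, and the transporters *LRP2*, *SLC22A6* and *SLC22A8* had no count in any library. The leukocyte markers *PTPRC* and *CD3E* were also at 0 in every library.

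Promoter sequences are shown for genes with a large and with a small difference between the lines, since the repressors SNAI1, SNAI2, ZEB1 and ZEB2 are known to bind an E-box in the promoters of epithelial genes. The RefSeq promoter windows for GRCh38.p14 held 14 windows for 7 of the 10 genes, each reaching 250 bases before a transcription start. *CDH1*, *CDH16* and *EPCAM* had no window, so the search did not cover them. The E-box was searched as CAGGTG and, for the other strand, CACCTG. No other motif was searched. The sequence before the start of *CLDN1*, which of the claudins among the 10 genes and tested differed most between HK2 and the cancer lines, is chr3:190322447-190322696 on the minus strand and has no match. The sequence before the outermost start of *TJP1*, whose level differed little, is chr15:29969050-29969299 on the minus strand and has 1 match, in capitals, at 88 bases before the start. The windows before its other starts, further inside the gene, have no match. For *OCLN* and *CLDN7*, whose windows with a match lie wholly or partly in annotated exons, 30 bases around matches are shown. They are chr5:69492496-69492525 and chr5:69492639-69492668 on the plus strand for *OCLN*, and chr17:7262479-7262508 on the minus strand for *CLDN7*.
CLDN1: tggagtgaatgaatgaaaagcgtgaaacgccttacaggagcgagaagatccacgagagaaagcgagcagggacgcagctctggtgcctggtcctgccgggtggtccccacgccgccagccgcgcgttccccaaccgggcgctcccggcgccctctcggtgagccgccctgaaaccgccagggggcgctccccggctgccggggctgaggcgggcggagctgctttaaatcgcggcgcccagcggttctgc
TJP1: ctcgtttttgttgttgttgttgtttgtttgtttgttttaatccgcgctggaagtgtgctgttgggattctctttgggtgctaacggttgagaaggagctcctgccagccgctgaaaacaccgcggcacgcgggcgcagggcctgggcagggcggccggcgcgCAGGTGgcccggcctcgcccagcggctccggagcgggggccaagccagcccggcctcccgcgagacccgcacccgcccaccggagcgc
OCLN first start: cccctcccatccgagtttCAGGTGaattgg
OCLN second start: agccggtctaggacgcagCAGGTGggactc
CLDN7: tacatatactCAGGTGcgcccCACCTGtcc

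In all, 4 of the 14 windows had at least 1 match, beside 17.5% of the 35116 windows of that length in the table. The second *CLDN7* window, before a start inside the gene, had 4 matches, at 174, 135, 20 and 9 bases before the start, and 0.464% of all windows had at least 3. A match is a string of letters and does not show that a protein was bound there. Genes with a match in a window were *TJP1*, near even among the lines, and *OCLN* and *CLDN7*, with fewer counts in both cancer lines than in HK2. *CLDN1*, also lower in them, had none, nor had *CLDN2*, *CLDN4* and *CLDN10*. Whether the matches have a part in the levels was not tested.

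Of the 10 genes, 8 passed the filter on low counts, while *CLDN7* and *CLDN10* did not. Between 786-O and HK2, 7 of the 8 were called, 6 lower and 1 higher in 786-O, beside 84.2% of all genes tested, 42.6% lower and 41.6% higher. Between 786-M1A and HK2, 7 of the 8 were called, all 7 lower in 786-M1A, beside 84.9% of all genes, 43.3% lower and 41.6% higher. Between 786-M1A and 786-O, 7 of the 8 were called, 2 higher and 5 lower in 786-M1A, beside 56.0% of all genes, 27.9% higher and 28.0% lower. Being called was thus common in this table, and the sizes and directions say more. Differences of at least 2-fold were found for 4 of the 8 in 786-O, all lower, and for 6 of the 8 in 786-M1A, all lower, where 13.1% and 15.0% of all genes were lower by that much. Between 786-M1A and 786-O, 1 of the 8 was higher and 3 were lower by at least 2-fold, beside 2.03% and 4.55% of all genes. The median log2 fold change of the 8 was -1.71 in 786-O and -2.37 in 786-M1A, beside -0.01 and -0.02 for all genes tested. *CDH1* and *OCLN* passed the filter only through their level in HK2, so a difference was built into their presence among the 8. *EPCAM* reached the filter's mean in HK2 and in 786-M1A but not in 786-O, where it had 23 to 24 counts per library. The filter thus favoured a difference of 786-O from either line in *EPCAM* too.

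**Figure D1:**
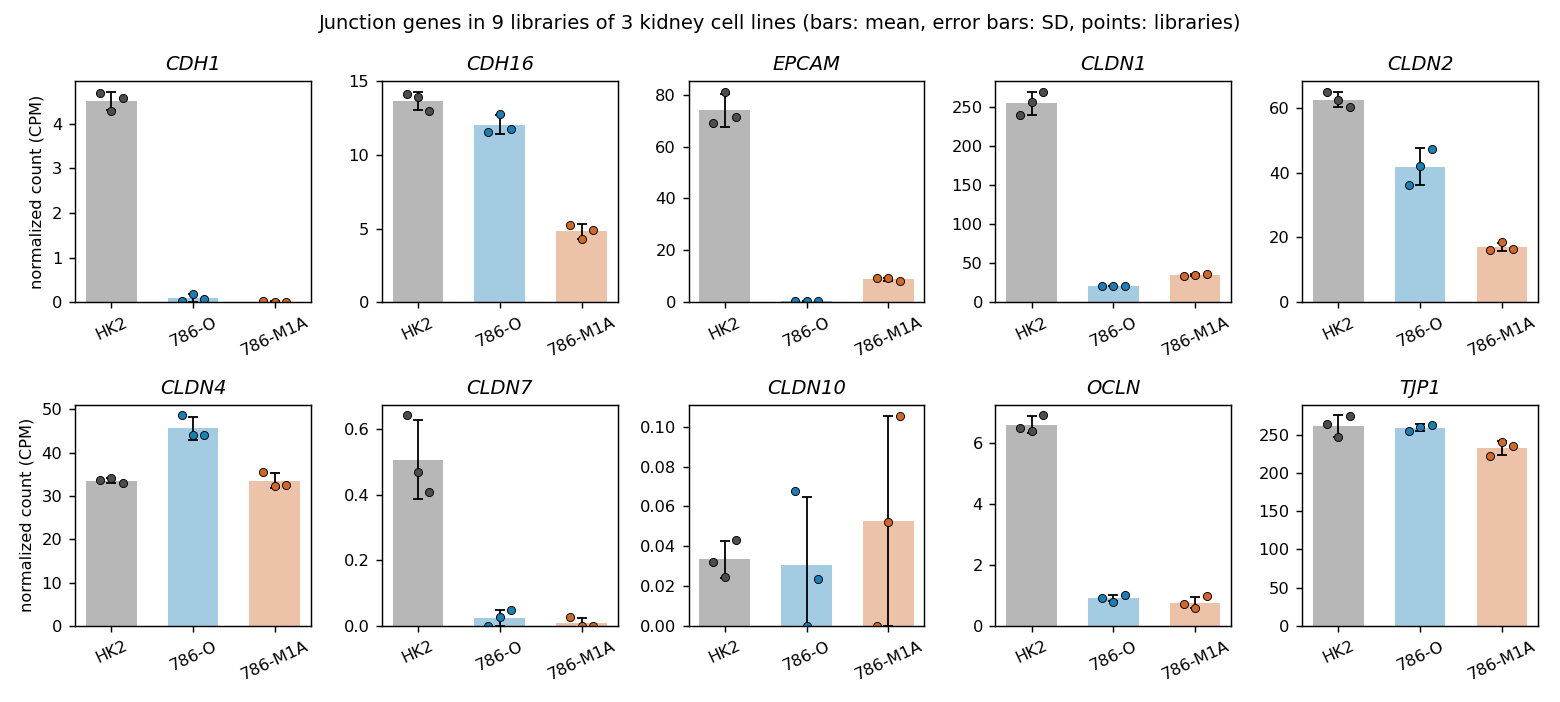
Normalized counts (CPM, vertical axis from 0) of the 10 genes in HK2, 786-O and 786-M1A; points are the 3 libraries of a line, bars their mean and error bars the SD. CDH1, EPCAM, CLDN1, CLDN7 and OCLN stand high in HK2 alone, CDH16 and CLDN2 are lowest in 786-M1A, CLDN4 is highest in 786-O, TJP1 is near the same height in the 3 lines, and CLDN10 is near the floor throughout.

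*CDH1* (NCBI gene 999, chr16:68737292-68835537 on GRCh38) encodes E-cadherin, the main cadherin of most epithelia. It had 4.69, 4.29 and 4.57 CPM in the HK2 libraries, 0.0225, 0.186 and 0.0708 CPM in 786-O and 0.0276, 0 and 0 CPM in 786-M1A. These are 146 to 212 counts per HK2 library, 1 to 7 per 786-O library and a single count in all of 786-M1A. E-cadherin mRNA was thus present in HK2 and close to the floor in both cancer lines. Against HK2 the log2 fold change reached -5.62 in 786-O (SE 0.25, edgeR adjusted p = 6.24e-15) and -8.55 in 786-M1A (SE 0.38, edgeR adjusted p = 3.23e-15). Both calls held in every alternative that tested the gene, but with so few counts the sizes moved, to -6.52 in 786-O without its replicate 2, and in 786-M1A to -10.5 without its replicate 1 and -6.28 in limma-trend. The ratio of pooled counts was 51.0 for HK2 over 786-O (95% counting interval 28.3 to 103) and 507 for HK2 over 786-M1A (90.7 to 20077), and the width of the second comes from the single count. The cancer lines overlapped. Their log2 difference of -2.92 (SE 1.06) had an edgeR adjusted p of 0.0243, which became 0.165 without 786-O replicate 2, 0.0788 without 786-M1A replicate 2, 0.0789 without 786-M1A replicate 3 and 0.0506 in a fit of the cancer lines alone. The difference itself was -2.03 without 786-O replicate 2, -4.87 without 786-M1A replicate 1 and -1.13 in limma-trend. Pooled, the 11 counts of 786-O and the 1 of 786-M1A gave a ratio of 9.94 (95% counting interval 1.44 to 428).

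*CDH16* (NCBI gene 1014, chr16:66908122-66918885) encodes Ksp-cadherin, a cadherin of kidney tubules that lacks the catenin-binding tail. It had 14.1, 13.9 and 13 CPM in HK2, 11.6, 12.8 and 11.8 CPM in 786-O, and 5.25, 4.27 and 4.91 CPM in 786-M1A. HK2 and 786-O lay close together and 786-M1A lay apart from both. The difference of 786-O from HK2 was small (log2 fold change -0.18, SE 0.071, edgeR adjusted p = 0.0221) and lost its call without HK2 replicate 1 or 2 or without 786-O replicate 1 or 3 (adjusted p 0.0738, 0.0648, 0.0852 and 0.0677). In 786-M1A the gene was 2.84-fold lower than in HK2 (log2 fold change -1.51, edgeR adjusted p = 1.81e-13) and 2.50-fold lower than in 786-O (log2 fold change -1.32, edgeR adjusted p = 1.48e-11). Both cadherins are on the long arm of chromosome 16, yet *CDH1* differed mostly between HK2 and the cancer lines and *CDH16* between 786-M1A and the other lines.

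*EPCAM* (NCBI gene 4072, chr2:47369311-47387020) encodes the epithelial cell adhesion molecule. Its libraries gave 69.2, 81.2 and 71.5 CPM in HK2, 0.541, 0.610 and 0.566 CPM in 786-O, and 9.29, 9.14 and 8.11 CPM in 786-M1A. Of the 8 genes tested it had the largest difference between 786-O and HK2, and it was the only one of them at least 2-fold higher in 786-M1A than in 786-O. The mean fell 129-fold from 74.0 ± 6.37 CPM (SD, n = 3) in HK2 to 0.572 ± 0.0352 CPM in 786-O (log2 fold change -7.01, SE 0.10, edgeR adjusted p = 1.69e-23). In 786-M1A it was 8.85 ± 0.642 CPM, still 8.38-fold under HK2 (log2 fold change -3.07, SE 0.067, edgeR adjusted p = 1.40e-20). The direct comparison put 786-M1A 15.4-fold above 786-O (log2 fold change 3.95, SE 0.14, edgeR adjusted p = 1.02e-15), beside 2.03% of all genes that were called and at least 2-fold higher. No library of any line overlapped another line's, and the log2 difference between the cancer lines stayed between 3.91 and 4 when each library was left out in turn. The counts behind it were 23 to 24 per 786-O library and 307 to 351 per 786-M1A library. As in every bulk sample, fewer cells with the transcript and less of it per cell cannot be told apart.

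*CLDN1* (NCBI gene 9076, chr3:190305707-190322446) encodes claudin-1, a sealing claudin. It had 239.5, 257 and 269 CPM in HK2, 20.3, 20.3 and 20.2 CPM in 786-O, and 34.0, 34.5 and 36.3 CPM in 786-M1A. The order was that of *EPCAM*, with HK2 highest, 786-M1A between and 786-O lowest, and no 2 lines overlapped. It was 12.6-fold lower in 786-O than in HK2 (log2 fold change -3.66, SE 0.050, edgeR adjusted p = 4.15e-24) and 7.32-fold lower in 786-M1A (-2.87, SE 0.047, edgeR adjusted p = 8.39e-23). Between the cancer lines it was 1.72-fold higher in 786-M1A (log2 fold change 0.79, SE 0.052, edgeR adjusted p = 3.22e-11). *EPCAM* and *CLDN1* were the 2 genes called higher in 786-M1A than in 786-O.

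*CLDN2* (NCBI gene 9075, chrX:106900164-106930861), the cation and water pore of the proximal tubule, gave 65.0, 62.3 and 60.2 CPM in HK2, 36.1, 42.1 and 47.4 CPM in 786-O, and 16.2, 18.5 and 16.5 CPM in 786-M1A. It went down in both steps of the series of lines, and the 786-O libraries spread more than the others without reaching them. Against HK2 its log2 fold change came to -0.58 in 786-O (SE 0.080, edgeR adjusted p = 1.54e-05) and -1.87 in 786-M1A (edgeR adjusted p = 1.60e-10), the second a 3.66-fold difference. 786-M1A was 2.45-fold below 786-O (edgeR adjusted p = 4.86e-08). Its exons share 341 bases with the antisense gene *RIPPLY1*, which had a mean of 3 counts.

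*CLDN4* (NCBI gene 1364, chr7:73830996-73832690), a claudin of tighter distal segments, went the other way in 786-O. It had 33.6, 34.1 and 32.9 CPM in HK2, 48.6, 44 and 44.2 CPM in 786-O, and 35.5, 32.3 and 32.6 CPM in 786-M1A. The 786-O libraries were above all others, while HK2 and 786-M1A overlapped. It was 1.36-fold higher in 786-O than in HK2 (log2 fold change 0.44, SE 0.051, edgeR adjusted p = 5.21e-08) and 1.36-fold lower in 786-M1A than in 786-O (log2 fold change -0.45, SE 0.051, edgeR adjusted p = 1.67e-07). For 786-M1A against HK2 the log2 fold change was -0.01 (SE 0.052, edgeR adjusted p = 0.929), a value whose sign changed in 6 alternatives. It was the single gene among the 8 called higher in a cancer line than in HK2.

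*CLDN7* (NCBI gene 1366, chr17:7259903-7263213), the claudin that EpCAM binds, was under the filter. It had 19 to 20 counts in each HK2 library, 0 to 2 in 786-O and 0 to 1 in 786-M1A. The pooled counts were 58, 3 and 1. HK2 was above every cancer library, and the ratio of HK2 to 786-O was 20.4 (95% counting interval 6.66 to 102) and that of HK2 to 786-M1A 55.4 (9.56 to 2226). *CLDN10* (NCBI gene 9071, chr13:95433755-95579759), which forms ion pores of the nephron, had 4, 4 and 6 counts in all in HK2, 786-O and 786-M1A, and a difference was not detectable at this depth. *CLDN7* and *CLDN10* share 38 and 1558 exon bases with the antisense genes *ELP5* and *DZIP1*, and the strand setting of the counting was not given in the sources used here, so their few counts are uncertain.

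*OCLN* (NCBI gene 100506658, chr5:69492547-69558104) encodes occludin, a tight junction protein of the MARVEL family that lies in the strands beside the claudins. It had 6.49, 6.40 and 6.90 CPM in HK2, 0.924, 0.796 and 1.01 CPM in 786-O, and 0.719, 0.599 and 0.977 CPM in 786-M1A. HK2 lay far above both cancer lines, which overlapped. It was 7.21-fold lower in 786-O (log2 fold change -2.85, SE 0.13, edgeR adjusted p = 8.54e-15) and 8.62-fold lower in 786-M1A (-3.11, SE 0.14, edgeR adjusted p = 4.97e-15). For the cancer lines the log2 difference of -0.26 (SE 0.21) had an edgeR adjusted p of 0.299 and an interval of -0.66 to 0.15. Its pseudogene *OCLNP1*, to which similar reads could be assigned, had 2 to 6 counts per library in any line.

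*TJP1* (NCBI gene 7082, chr15:29699367-29969049) encodes ZO-1, which links claudins and occludin to actin. It had 264, 246 and 274 CPM in HK2, 254, 260.2 and 263 CPM in 786-O, and 222, 241 and 235 CPM in 786-M1A. HK2 and 786-O overlapped, and their log2 difference of -0.01 (SE 0.041, edgeR adjusted p = 0.769) had an interval of -0.09 to 0.07. The 786-M1A libraries were below those of both other lines, by 1.12-fold against HK2 (log2 fold change -0.17, edgeR adjusted p = 7.18e-04) and 1.11-fold against 786-O (-0.16, edgeR adjusted p = 0.00289). The scaffold thus differed by little where occludin and claudin-1 differed several fold.

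**Figure D2:**
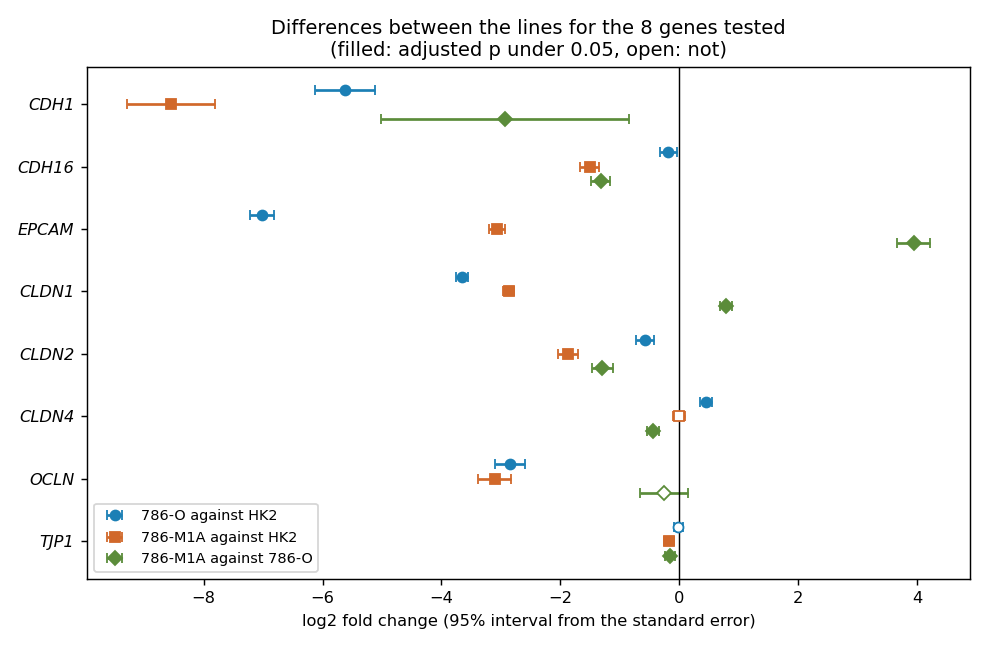
Log2 fold changes (horizontal axis) of the 8 genes tested in the 3 comparisons, with 95% intervals from the standard error; filled symbols have an adjusted p under 0.05. EPCAM runs from -7.01 in 786-O against HK2 to 3.95 in 786-M1A against 786-O, whereas the 3 values of TJP1 lie between -0.17 and -0.01, and the interval of CDH1 between the cancer lines is the widest.

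Set side by side, 7 of the 8 genes tested were highest in HK2, with *CLDN4* the exception, and 6 were lowest in 786-M1A, with *EPCAM* and *CLDN1* lowest in 786-O. Called lower in both cancer lines were 6 of the 8, beside 37.4% of all genes, and 5 of the 8 were called in all 3 comparisons, beside 42.5%. Both comparisons with HK2 use the same HK2 libraries and are not independent of each other. On the scale of CPM per kilobase of merged exon length, which allows levels of different genes to be compared, *CLDN1* was the highest of the 8 in HK2 at 70.3, followed by *EPCAM* at 30.4, *TJP1* at 23.1 and *CLDN2* at 18.3. *CDH1* and *OCLN* were lowest there, at 0.744 and 0.586. In 786-O *TJP1* stood first at 22.9 and *EPCAM* had 0.236. In 786-M1A *TJP1* again stood first, at 20.6, followed by *CLDN1* at 9.63, and *EPCAM* had 3.64. The order of *CLDN1*, *CLDN2* and *CLDN4* in the cancer lines depends on the length used, since the merged exons of *CLDN4* span 4.70 kilobases and its canonical transcript 1.70.

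The claudin family as a whole had 24 genes in the table, of which 8 passed the filter and 5 had no count in any library. Summed per kilobase, claudin mRNA was 151 ± 2.95 CPM per kilobase (SD, n = 3) in HK2 against 41.7 ± 1.25 in 786-O and 37.1 ± 0.699 in 786-M1A. In HK2, *CLDN1* made up 46.6% ± 1.85 (SD, n = 3) of the sum and *CLDN11*, known from myelin and the testis, 24.4% ± 0.614. In 786-O the largest shares were *CLDN2* with 29.4% ± 3.20, *CLDN4* with 23.3% ± 1.81 and *CLDN12* with 20.4% ± 0.659. In 786-M1A they were *CLDN12* with 27.3% ± 0.428, *CLDN1* with 26.0% ± 1.01 and *CLDN4* with 19.2% ± 0.753. Per kilobase of the canonical transcript, *CLDN4* came first in both cancer lines, with 37.5% in 786-O and 31.4% in 786-M1A, while *CLDN1* stayed first in HK2 with 36.4%. The leading claudin of HK2 did not change with the length, and that of the cancer lines did. *CLDN12* shares exon bases with its neighbours *CDK14* and *GTPBP10*, so its share is uncertain.

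**Figure D3:**
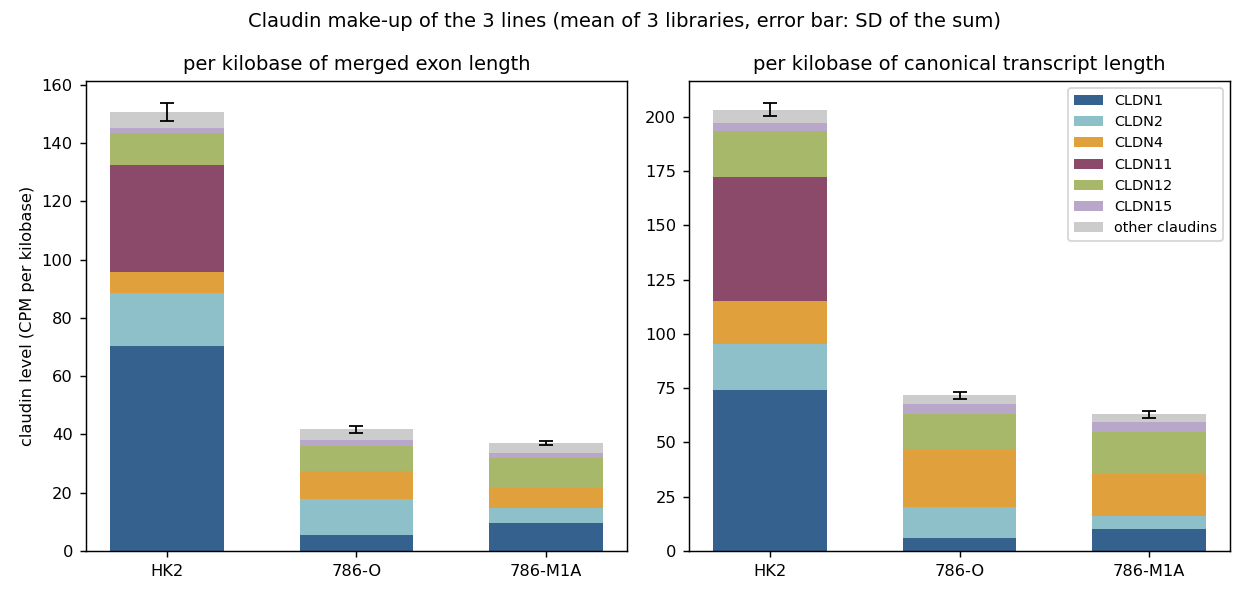
Claudin mRNA of each line in CPM per kilobase (vertical axis from 0), stacked by gene as means of 3 libraries, with the SD of the sum; the left panel divides by merged exon length and the right panel by canonical transcript length. The HK2 column, 151 in the left panel, is filled mostly by CLDN1 and CLDN11. CLDN11 nearly vanishes from the shorter columns of 786-O (41.7) and 786-M1A (37.1), while CLDN1 keeps 13.4% and 26.0% of them.

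Among the 19 other claudins, 5 were tested. *CLDN11* and *CLDN16* averaged at least 50 counts in HK2 alone and *CLDN23* in the cancer lines alone. The filter thus favoured a difference from HK2 in these 3. *CLDN11* had 159 ± 1.5 CPM (SD, n = 3) in HK2, then 0.127 ± 0.0270 in 786-O and 0.0796 ± 0.0245 in 786-M1A (edgeR adjusted p = 3.25e-27 and 5.06e-27 against HK2), a larger difference than that of *CLDN1*. *CLDN16*, a claudin of the thick ascending limb whose span of chr3:190290361-190412138 contains that of *CLDN1* on the other strand, had 10.7 ± 0.332 CPM in HK2 and 0.785 ± 0.199 in 786-O, and a single count in 786-M1A. It was 87.7 times lower in 786-M1A than in 786-O by pooled counts (95% counting interval 15.4 to 3497, edgeR adjusted p = 1.02e-08), whereas *CLDN1* was higher there. *CLDN23*, in turn, was higher in both cancer lines, at 3.13 ± 0.147 and 3.67 ± 0.512 CPM against 0.934 ± 0.260 in HK2 (edgeR adjusted p = 3.93e-09 and 3.62e-10). *CLDN12* differed by less than 1.30-fold in any comparison, and *CLDN15* was not called in any.

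Of 20 partners of claudins and occludin in the tight junction, 17 were tested. Against HK2, 11 were lower and 5 higher in 786-O, beside 42.6% lower and 41.6% higher of all genes tested, and 13 were lower and 4 higher in 786-M1A, beside 43.3% and 41.6%. Their median log2 fold changes were -0.68 and -1.45, but 2 of the 17 in the first comparison and 4 in the second averaged 50 counts in HK2 and not in the cancer line, so the filter favoured a fall in them. *JAM3*, a junctional adhesion molecule, fell from 73.9 ± 1.35 CPM (SD, n = 3) in HK2 to 1.67 ± 0.139 in 786-O (edgeR adjusted p = 2.89e-24), although 1889 of its exon bases lie antisense to *NCAPD3*. Cingulin (*CGN*), which binds ZO proteins, had 10.4 ± 0.0990, 0.733 ± 0.0505 and 0.188 ± 0.1 CPM in HK2, 786-O and 786-M1A, and was called in each comparison. *CXADR*, another immunoglobulin-like adhesion molecule of the junction, had 12.3 ± 0.663, 8.79 ± 0.365 and 0.312 ± 0.0409 CPM, so that most of its difference lay between the cancer lines (log2 fold change -4.80, SE 0.14, edgeR adjusted p = 3.90e-17). *CXADR* averaged 50 counts in 786-O and not in 786-M1A, so the filter favoured that fall too. Tricellulin (*MARVELD2*), the relative of occludin at corners where 3 cells meet, fell by 0.90 in 786-O and by 2.20 in 786-M1A on the log2 scale (edgeR adjusted p = 8.07e-07 and 1.10e-11).

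Partners of cadherins in the adherens junction moved in both directions. Of 16, 13 were tested, with 3 higher and 7 lower in 786-O, 5 higher and 8 lower in 786-M1A, and 6 higher and 4 lower in 786-M1A than in 786-O. Of all genes tested, 41.6% were higher and 42.6% lower, 41.6% and 43.3%, and 27.9% and 28.0% in these comparisons. The medians of the 13 lay within 0.20 of 0 on the log2 scale. Plakoglobin (*JUP*), shared with desmosomes, fell the most, with 88.4 ± 4.37 CPM (SD, n = 3) in HK2 against 16.1 ± 0.956 in 786-O and 3.52 ± 0.348 in 786-M1A (edgeR adjusted p = 2.87e-20 and 2.55e-23). Beta-catenin (*CTNNB1*), which links cadherins to alpha-catenin, had 317 ± 3.92, 304 ± 2.09 and 291 ± 11.1 CPM, and alpha-catenin (*CTNNA1*) was higher in both cancer lines, at 957 ± 4.35 and 1023 ± 14.8 against 510 ± 2.17 CPM. *NECTIN1*, an adhesion molecule that assembles beside cadherins, was also higher in them, by 1.16 and 1.47 on the log2 scale (edgeR adjusted p = 1.49e-15 and 1.89e-17). The actin-associated *ZYX* had its difference between the cancer lines, 1.72-fold higher in 786-M1A (edgeR adjusted p = 1.24e-09).

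Of the 15 other cadherins, 7 were tested, and their levels show what stood beside E-cadherin in these cells. Against HK2, 3 were called higher and 4 lower in each cancer line. Of all genes tested, 41.6% were higher and 42.6% lower in 786-O, and 41.6% and 43.3% in 786-M1A. Per kilobase of merged exons, *CDH6*, the cadherin of the proximal tubule, had 71.1 CPM and N-cadherin (*CDH2*) 27.0 CPM in HK2, where *CDH1* had 0.744. In 786-O *CDH2* had 38.7 and *CDH6* 32.9, and in 786-M1A 44.3 and 21.4. E-cadherin was thus a minor cadherin mRNA already in HK2. *CDH2* was higher in both cancer lines than in HK2 (log2 fold change 0.52 and 0.71, edgeR adjusted p = 2.74e-11 and 8.66e-14), and *CDH6* was lower (-1.11 and -1.73, edgeR adjusted p = 6.62e-17 and 3.15e-20). P-cadherin (*CDH3*) had 10.2 ± 0.390 CPM (SD, n = 3) in HK2, 1 count in 786-O and none in 786-M1A, where it was at least 383-fold lower. *CDH13*, a cadherin held by a lipid anchor, ran the opposite way, with 0.257 ± 0.0922, 28.2 ± 1.48 and 119 ± 1.17 CPM, and was called in each comparison. *CDH11*, typical of mesenchymal cells, had 6.54 ± 0.297 CPM in 786-O, 0.710 ± 0.0882 CPM in 786-M1A and 1 count in HK2. The filter favoured a difference in several of these genes. *CDH3* and *CDH17* averaged at least 50 counts in HK2 alone, *CDH13* in the cancer lines alone and *CDH11* in 786-O alone.

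Genes that act with EpCAM were few: 9 were listed and 5 tested, with 2 higher and 3 lower in each comparison, where 84.2%, 84.9% and 56.0% of all genes were called. The protease inhibitor *SPINT1* had 45.1 ± 0.965 CPM (SD, n = 3) in HK2, then 6.74 ± 0.202 in 786-O and 0.791 ± 0.0168 in 786-M1A, so that it fell further where *EPCAM* was higher. *SPINT1* averaged at least 50 counts in HK2 and 786-O but not in 786-M1A, so the filter favoured a low level there. Its relative *SPINT2* had 279 ± 13.2, 76.0 ± 2.46 and 146 ± 8.22 CPM, the same order of lines as *EPCAM* and *CLDN1*, and was 1.93-fold higher in 786-M1A than in 786-O (edgeR adjusted p = 1.84e-13).

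In desmosomes, the spot-like junctions tied to keratin, 8 of 13 genes were tested, and 4 were lower and 2 higher in each cancer line than in HK2. With 6 of 8 called, the list was below the 84.2% and 84.9% of all genes. *DSP* and *DSC3* averaged at least 50 counts in HK2 alone, and *PKP2* in HK2 and 786-O but not in 786-M1A. The filter thus favoured a fall from HK2 in 2 of the 8 in 786-O and in 3 in 786-M1A. It also favoured a fall of *PKP2* between the cancer lines. Desmoplakin (*DSP*), which joins the desmosome to keratin, had 300 ± 34.5 CPM (SD, n = 3) in HK2 against 0.576 ± 0.260 in 786-O and 0.0984 ± 0.0430 in 786-M1A (edgeR adjusted p = 7.57e-13 and 6.29e-13). The desmosomal cadherin *DSC3* had 38.2 ± 1.70 CPM in HK2 and no count in either cancer line, which makes it at least 1589-fold lower in 786-O and 1436-fold lower in 786-M1A. *PKP2*, a plaque protein, had 26.9 ± 0.460, 8.82 ± 0.385 and 0.579 ± 0.0732 CPM and was 15.2-fold lower in 786-M1A than in 786-O (edgeR adjusted p = 6.44e-17). *PERP* and *PKP3* were the 2 that were higher in the cancer lines, *PERP* at 85.1 ± 1.51 and 99.4 ± 2.56 against 42.4 ± 0.350 CPM in HK2. The medians of the 8 were -0.83 in 786-O and -2.28 in 786-M1A, and include the genes that the filter favoured. Lower by at least 2-fold were 4 of the 8 in each line, beside 13.1% and 15.0% of all genes. With 2 genes called higher in each, the desmosome held no uniform direction.

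Of 18 genes of apical and basal polarity, 17 were tested, with 7 higher and 9 lower in 786-O, 6 higher and 9 lower in 786-M1A, and medians of -0.25 and -0.28. These counts are near the background, where 41.6% of all genes were higher in either line and 42.6% and 43.3% lower. The kinase *PRKCZ* of the apical complex had 53.7 ± 1.36 CPM (SD, n = 3) in HK2, 0.111 ± 0.0284 in 786-O and 3 counts in 786-M1A, and shares 590 exon bases antisense with *FAAP20*. The basolateral gene *LLGL2* was higher in both cancer lines, at 18.7 ± 0.329 and 16.6 ± 0.916 against 1.11 ± 0.147 CPM (edgeR adjusted p = 7.22e-20 and 2.06e-19). *PRKCZ* averaged at least 50 counts in HK2 alone and *LLGL2* in the cancer lines alone, so the filter favoured a difference from HK2 in both. *PARD3*, the scaffold that recruits the apical kinase to junctions, was higher by 0.32 and 0.55 on the log2 scale (edgeR adjusted p = 3.04e-08 and 3.28e-12).

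**Figure D4:**
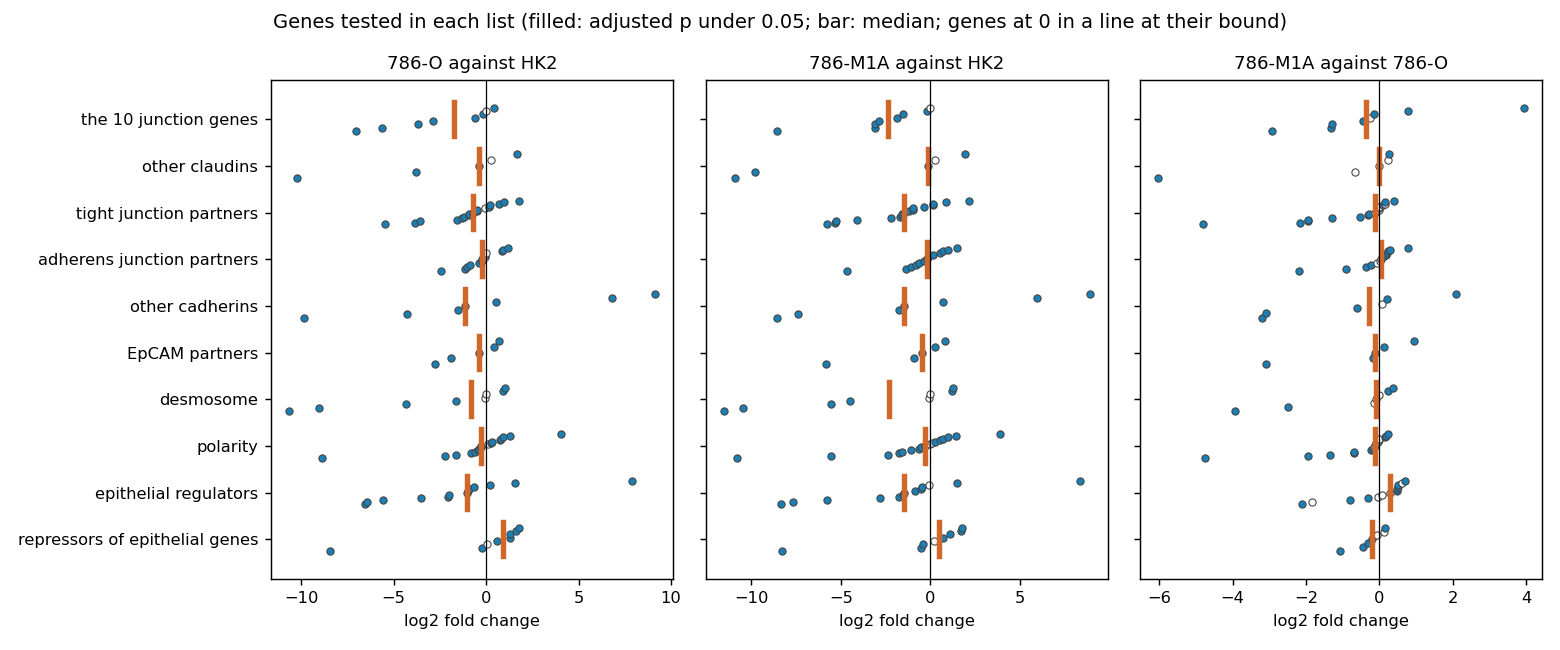
Log2 fold change (horizontal axis) of every gene tested in the 10 junction genes and the 9 lists around them, in the 3 comparisons; filled points have an adjusted p under 0.05, orange bars are medians, genes at 0 in 1 line are drawn at their bound and genes at or under the floor in both lines are left out. Tight junction partners and epithelial regulators have medians of -0.68 and -1.02 in 786-O and the repressors 0.93, and most medians of 786-M1A against 786-O lie near 0.

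Of 24 regulators and other genes of the epithelial state, 13 were tested. Against HK2, 10 were lower and 3 higher in 786-O, beside 42.6% and 41.6% of all genes, and 10 were lower and 2 higher in 786-M1A, beside 43.3% and 41.6%. The medians were -1.02 and -1.45. In each comparison 4 of the 13 averaged 50 counts in only one of the lines, *ESRP1*, *ESRP2* and *PRSS8* in HK2 and *FOXA2* in the cancer line, so the filter favoured a difference in them. The splicing factor *ESRP1* had 3.97 ± 0.109 CPM (SD, n = 3) in HK2, 5 counts in 786-O and 1 count in 786-M1A. Its relative *ESRP2* had 28.5 ± 2.26, 0.325 ± 0.107 and 0.506 ± 0.0436 CPM (edgeR adjusted p = 3.21e-21 and 6.97e-21). *KLF5*, a transcription factor of epithelia, had 50.7 ± 3.17, 4.49 ± 0.338 and 7.28 ± 0.500 CPM, with 786-M1A 1.62-fold above 786-O (edgeR adjusted p = 1.03e-06). *OVOL2* had 1.62 ± 0.0701 CPM in HK2 and no count in the cancer lines, at least 67.0-fold and 60.5-fold lower, and *GRHL2* had 1 count over all 9 libraries, in 786-O. *FOXA2* stood out on the other side, with 3 counts in HK2 and 6.77 ± 0.578 and 9.51 ± 0.791 CPM in 786-O and 786-M1A.

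Repressors of epithelial genes, 13 in number with 8 tested, had 5 higher and 2 lower in 786-O and 4 higher and 3 lower in 786-M1A. Being called, as 7 of the 8 were in either line, was near the 84.2% and 84.9% of all genes. *ZEB1* had 21.5 ± 0.603 CPM (SD, n = 3) in HK2, then 32.3 ± 1.41 in 786-O and 35.0 ± 2.60 in 786-M1A (log2 fold change 0.58 and 0.70, edgeR adjusted p = 4.42e-09 and 1.92e-10). *ZEB2* had 21.8 ± 1.19, 52.9 ± 2.09 and 46.4 ± 0.931 CPM (1.28 and 1.09, edgeR adjusted p = 5.25e-16 and 1.02e-14). The E-box factors *TCF4* and *TCF3* were higher by 1.77 and 1.61 on the log2 scale in 786-O (edgeR adjusted p = 1.51e-16 and 6.65e-17). *SNAI1*, in contrast, had 25.1 ± 1.45 CPM in HK2 and 25.6 ± 1.84 in 786-O (edgeR adjusted p = 0.596) and was lower in 786-M1A (18.9 ± 0.932, edgeR adjusted p = 3.40e-06). *SNAI2* was lower in both (log2 fold change -0.22 and -0.55, edgeR adjusted p = 5.88e-05 and 1.33e-10), and *TWIST1* had 8.33 ± 0.186 CPM in HK2 and no count in either cancer line. The filter favoured a fall in *TWIST1*, which averaged 50 counts in HK2 alone. Between the cancer lines, where *EPCAM* differed 15.4-fold, *ZEB1* had a log2 difference of 0.12 (SE 0.055, edgeR adjusted p = 0.0749) and *ZEB2* of -0.19 (SE 0.047, edgeR adjusted p = 0.00181). The 9 mesenchymal markers had summed levels of 7286 to 8537 CPM in HK2 against 6606 to 6903 in 786-O and 10371 to 11197 in 786-M1A. Nearly all of each sum came from vimentin and fibronectin. Against HK2 this pair went opposite ways, whereas both were higher in 786-M1A than in 786-O. Vimentin (*VIM*) had 1397 ± 44.5, 4844 ± 50.4 and 6537 ± 90.3 CPM in HK2, 786-O and 786-M1A, and fibronectin (*FN1*), which made up most of the sum in HK2, 6538 ± 658, 1646 ± 105 and 3986 ± 499.9. *COL1A2* was at 0 in every HK2 library and nearly absent from the cancer lines too, with 10 counts in all of 786-O and 1 in all of 786-M1A. The other markers differed in direction. In HK2, 786-O and 786-M1A, *COL1A1* had 53.6 ± 4.22, 291 ± 34.7 and 16.5 ± 1.24 CPM. *PDGFRB* had 4.98 ± 0.606, 2.59 ± 0.366 and 282 ± 3.08 CPM, and *LUM* 22.5 ± 0.721, 14.6 ± 0.739 and 5.47 ± 0.539. *COL3A1* had 0.764 ± 0.147 and 3.61 ± 0.186 CPM in HK2 and 786-O, and 1 count in 786-M1A. *DCN* and *THY1* had 0.126 and 0.575 CPM in HK2 and less in both cancer lines. Whether these levels have a part in those of the junction genes was not tested.

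The genes with the most similar profile over the 9 libraries were found by the Euclidean distance of log2 CPM after each gene's mean was subtracted. *CLDN1* was closest to *KLF5* (distance 0.300) and to *COL16A1* (0.308), a collagen. The nearest profile to *CDH1* was that of the polarity gene *CRB2* (0.652), with 6.02 ± 0.715 CPM (SD, n = 3) in HK2, then 0.108 ± 0.0714 in 786-O and 0.0267 ± 0.000833 in 786-M1A, then *GREB1* (1.00). In 786-M1A both *CDH1* and *CRB2* were at or under the floor of 0.0267 CPM. The small SD of *CRB2* there is thus no sign of a precise level, and the distance rests partly on very few counts. *EPCAM* had no very close profile. Its nearest genes, at 1.07 each, were *EPB41L3*, a linker of membrane and actin with 153 ± 5.07, 0.867 ± 0.0672 and 10.4 ± 0.397 CPM, and *CHRDL1*, a secreted antagonist of bone morphogenetic proteins with 519 ± 12.5, 7.70 ± 0.178 and 75.6 ± 2.17 CPM. *TJP1* was closest to *ZYG11B* (0.0999) and *SETD5* (0.102), *CLDN4* to *PSMG3* (0.122) and *RAB34* (0.128), and *CDH16* to *ZDHHC4* (0.193) and *GCNT3* (0.352). *CLDN2* was closest to *TRAPPC11* (0.360) and *UFSP2* (0.385), and *OCLN* to *FBXO32* (0.450) and *YPEL3* (0.525). A small distance says that levels moved alike in these libraries and nothing of shared function.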

How the data were processed

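The authors prepared TruSeq Stranded mRNA libraries from replicate dishes of each line (3 libraries a line are analysed here, fewer than the dishes their methods name), sequenced them on a NextSeq 500 and counted reads on genes with Rsubread. The submitters' processing notes name featureCounts and GRCh38, and the annotation release and strand setting are not given in the sources used here. The deposited values are raw counts per gene, 30212291 to 45362428 per library, with 7154 genes at 0 in every library. Intervals and floors cover counting error only. Groups came from the sample labels, and no library was left out.

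Symbols came from RefSeq GRCh38.p14 and matched 27745 of 28395 identifiers. Lengths, positions and overlaps came from GENCODE release 44. Counts were normalized by TMM and tested with the robust quasi-likelihood model of edgeR 4.0.16 in R 4.3.3 (mean of at least 50 counts, Benjamini-Hochberg, 0.05). The fit was also run on counts simulated with dispersions estimated from these libraries, which cannot show how well its model suits them. Standard errors were derived from the F statistic. Pooled counts of low genes were compared by exact binomial intervals at 95%.

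The 10 genes and the 9 lists around them (147 further genes) were chosen with earlier results of these data known. Named are the 10 genes, the genes of each list and comparison with the largest called difference in each direction without overlap between libraries, and the 2 nearest profiles of each gene tested. *ZEB1*, *ZEB2*, *SNAI1*, *SNAI2*, *CDH2*, *CDH6*, *CDH17*, *MARVELD2*, *CTNNA1*, *CTNNB1*, *CLDN12*, *CLDN15*, *DSP*, *ESRP2*, *PRSS8*, *VIM*, *FN1*, *COL1A1*, *COL1A2*, *COL3A1*, *DCN*, *LUM*, *PDGFRB*, *THY1*, *OVOL2* and *GRHL2* were named for their roles or after their values were seen. A few genes that this rule covers are left unreported.

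Alternatives were RLE and upper-quartile scaling, DESeq2 1.42.0, limma-trend (limma 3.58.1, log2 CPM with a prior count of 2), no filter, at least 10 counts in every library, a fit of the compared lines alone, a block for the replicate number, and each library left out in turn. The canonical transcript length and the neighbouring genes were added after seeing the data.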

Additional observations from a re-analysis of the deposited data

Results flagged for a closer look

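For 7 of the 8 genes tested the log2 fold change against HK2 differed between the cancer lines, by the direct comparison of 786-M1A with 786-O in the same fit. The value in 786-M1A minus that in 786-O was 3.95 for *EPCAM*, 0.79 for *CLDN1*, -0.16 for *TJP1*, -0.45 for *CLDN4*, -1.29 for *CLDN2*, -1.32 for *CDH16* and -2.92 for *CDH1*. For *CDH1*, which rests on 11 counts in 786-O and 1 in 786-M1A, the call was lost without 786-O replicate 2 (log2 difference -2.03). *OCLN* was the gene for which no difference was called (-0.26).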

How the results depend on the processing

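In 388 of 405 refits of a single gene and comparison under the alternatives, the direction and the call were kept. The 8 that lost a call were 4 refits of *CDH16* in 786-O against HK2, with values of -0.17 to -0.15 on the log2 scale, and 4 of *CDH1* between the cancer lines, with -2.93 to -2.03. The 9 that changed sign belonged to 2 uncalled differences. *TJP1* in 786-O against HK2 ranged from -0.054 to 0.023 when each library was left out, and became 0.0085 without the filter, 0.023 without HK2 replicate 3 and 0.0013 without 786-O replicate 1. *CLDN4* in 786-M1A against HK2 ranged from -0.048 to 0.019 in the same way, and became 0.023 without the filter, 0.0010 with only these lines fitted, 0.0078 without HK2 replicate 2, 0.0035 without 786-O replicate 1, 0.019 without 786-M1A replicate 2 and 0.014 without 786-M1A replicate 3. Leaving out each library in turn, 6 to 7, 7 and 6 to 7 of the 8 genes were called in 786-O against HK2, 786-M1A against HK2 and 786-M1A against 786-O. Without the filter, 5410, 5895 and 1592 of all genes were called with at least a 2-fold difference in these comparisons, and 2829, 3220 and 836 with it, since more genes were then tested. The share of *CLDN1* in the claudin mRNA of HK2 was 42.3% by plain CPM and 36.4% by canonical length, that of *CLDN2* in 786-O 23.5% and 19.7%, and that of *CLDN12* in 786-M1A 41.0% and 30.5%. No scaling moved the median of all genes by over 0.1.

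With a replicate block in the fit, 10688, 10797 and 7157 of all genes were called (10693, 10784 and 7103 without the block), and 7 of the 8 junction genes in each comparison, with no call of theirs changed. The deviations of same-numbered libraries from their line means correlated across genes at -0.0573 to -0.0285 between 786-O and HK2, at -0.167 to 0.0376 between 786-M1A and HK2, and at 0.0740 to 0.215 between 786-M1A and 786-O, where 6 of 6 libraries correlated best with their own number. In the comparisons with HK2 the numbers showed no sign of pairing the libraries. Between the cancer lines they may pair them, which the fit without the block does not allow for.

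Depth limits what can be said of *CLDN10* in any line and of *CDH1* and *CLDN7* in the cancer lines, all with 0 to 7 counts per library.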

Other observations

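The genes next to the 10 on the chromosome were looked up after the counts were seen, and no test of the neighbourhood was made. *CDH3* ends 3.52 kilobases before *CDH1* and, like it, was high in HK2 alone, whereas *TANGO6*, 7.99 kilobases on the other side, was higher in the cancer lines (log2 fold change 0.34 in 786-O and 0.68 in 786-M1A, edgeR adjusted p = 8.63e-07 and 6.84e-12). *MARVELD2* lies 48.2 kilobases before *OCLN* and was lower in both cancer lines, while *RAD17*, 77.7 kilobases before *OCLN*, had 28.7 ± 1.30, 29.6 ± 1.13 and 28.7 ± 0.155 CPM (SD, n = 3) in HK2, 786-O and 786-M1A. *P3H2*, a collagen hydroxylase 183 kilobases from *CLDN1*, had 348 ± 1.05, 116 ± 1.17 and 191 ± 2.98 CPM, the same order of lines as *CLDN1*, and its log2 difference between the cancer lines was 0.71 (edgeR adjusted p = 1.47e-13) beside 0.79 for *CLDN1*.

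*CLDN3*, 60.7 kilobases from *CLDN4*, had 0.881 ± 0.121, 0.639 ± 0.111 and 0.277 ± 0.0712 CPM (SD, n = 3) in HK2, 786-O and 786-M1A and was under the filter, so that its highest mean was in HK2 and that of *CLDN4* in 786-O. Beyond *CLDN7*, *YBX2*, a binding protein of germ cell RNA 25.1 kilobases away, had 16.2 ± 0.538 CPM in HK2 and no count in either cancer line.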
